A study of Mus musculus with 11 samples.

Results

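The metabotropic glutamate receptor genes described here are Grm2, Grm3, Grm4, Grm5, Grm7 and Grm8. They were taken by gene symbol, by a rule that uses no measured value, and all 6 were found among the 30681 genes of the deposited count table. The counts come from RNA sequencing of hippocampal polyadenylated RNA, from adult mice at 6 months of age. There are 6 libraries from mice with a conditional knockout of Dclk3, a doublecortin-like kinase gene, and 5 from wild-type (WT) mice that served as the controls of that knockout, each made from 1 hippocampus. A conditional knockout removes a gene only in cells that carry a recombinase. For the recombinase line, the part of Dclk3 removed, the strain and any treatment, nothing is stated in the labels. They also do not say that each library came from another animal, so the p-values measure the spread between these samples, which may be technical.

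Metabotropic glutamate receptors are G protein-coupled receptors that work as dimers and bind glutamate in a large extracellular domain. Group I, here Grm5, couples to Gq, activates phospholipase C and releases calcium from internal stores, and it lies mostly on the postsynaptic side, where it is held by Homer and Shank proteins. Group II (Grm2 and Grm3) and group III (Grm4, Grm7 and Grm8) couple to Gi and Go, lower cyclic AMP and are known mainly as presynaptic brakes on transmitter release. In the hippocampus, mGlu5 is known for a form of long-term depression, mGlu2 for its action at mossy fibre terminals, mGlu3 for its expression in astrocytes as well as neurons, and mGlu7 for its place at the active zone of glutamatergic terminals.

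None of the 6 receptor genes differed between the genotypes beyond the spread between libraries, and in each of them the values of the groups overlapped. Grm5 came nearest, with a mean 7.6% higher in the libraries labelled cKO. Grm4, Grm2 and Grm8 had lower means there, by -9.56%, -6.55% and -2.43%. Grm3 had a mean 4.18% higher and Grm7 one 0.779% higher. The largest and the smallest receptor level differed far more within a library than any receptor differed between genotypes: per kilobase of exon Grm5 had a mean level of 22.1 and Grm8 one of 0.513.

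The 6 genes share a protein family but not a locus. Grm2 (ENSMUSG00000023192) lies on chromosome 9, 106643095 to 106656082, minus strand, and spans 13.0 kb, of which 37.7% is exon. Grm3 (ENSMUSG00000003974) lies on chromosome 5, 9485541 to 9725170, minus strand. Grm5 (ENSMUSG00000049583) lies on chromosome 7, 87584168 to 88134907, plus strand. Among the group III genes, Grm4 (ENSMUSG00000063239) lies on chromosome 17, 27422387 to 27521403, minus strand. Grm7 (ENSMUSG00000056755) and Grm8 (ENSMUSG00000024211) both lie on chromosome 6, at 110645581 to 111567230 on the plus strand and 27275119 to 28135178 on the minus strand. All coordinates are GENCODE M21 on mm10. Grm2 is therefore the compact member, while Grm7 spans 921.6 kb with 0.639% exon and Grm8 860.1 kb with 1.15% exon. Grm2 is also the member on the chromosome of the targeted gene, 4.78 Mb from Dclk3.

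Reads of close paralogs can be hard to assign, so the coding sequences of the annotated transcripts were compared for the longest run of identical bases in each pair. Over the 15 pairs the runs were short, and the longest was 27 bases, between Grm3 and Grm4. The longest run within group III was 26 bases, between Grm4 and Grm7, and that of the group II pair, Grm2 and Grm3, was 20 bases. These 3 runs are printed, 5′ to 3′ on the coding strand, since they are where a read could least tell these members apart.
Grm3 and Grm4: ggcttcaccatgtacaccacctgcatc
Grm4 and Grm7: tgtactgtgtatgccatcaagactcg
Grm2 and Grm3: ccctctgtcccaacaccacc
The read length was not stated. Of the exon bases of Grm2 9.6% are shared with an antisense gene, and of those of Grm7 2.2%, and Grm8 holds a microRNA in an exon (1.0% of its exon bases). The labels do not state whether the counting used the strand, so at those bases reads of Grm2 or Grm7 and of its antisense partner may not have been told apart. The antisense gene of Grm7, Gm20387, had a mean of 41.0 counts against 1412.1 for Grm7.

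RefSeq promoter sequences (GRCm38.p6, 250 bases before to 50 after a transcript start) were matched for 4 of the members, Grm2, Grm3, Grm7 and Grm8. Those of the group II pair and of Grm8 (its outermost of 3 starts) are printed 5′ to 3′ on the gene's strand, since Grm3 was the highest and Grm8 the lowest in level per kilobase among the matched members. Capitals mark the GC box GGGCGG, searched on both strands.
Grm2, chr9:106656060-106656359, minus strand: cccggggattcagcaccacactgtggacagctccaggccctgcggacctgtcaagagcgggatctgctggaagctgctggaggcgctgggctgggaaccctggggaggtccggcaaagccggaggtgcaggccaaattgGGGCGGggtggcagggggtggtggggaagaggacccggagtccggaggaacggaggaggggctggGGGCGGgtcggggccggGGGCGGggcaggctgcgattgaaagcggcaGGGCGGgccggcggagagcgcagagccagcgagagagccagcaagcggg
Grm3, chr5:9725303-9725602, minus strand: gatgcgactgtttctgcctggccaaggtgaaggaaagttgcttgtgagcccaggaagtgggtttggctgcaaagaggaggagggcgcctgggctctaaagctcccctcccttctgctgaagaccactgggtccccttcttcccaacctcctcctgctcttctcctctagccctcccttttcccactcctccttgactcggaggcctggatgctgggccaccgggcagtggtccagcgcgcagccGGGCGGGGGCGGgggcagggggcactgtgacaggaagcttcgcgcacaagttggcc
Grm8, chr6:28135097-28135396, minus strand: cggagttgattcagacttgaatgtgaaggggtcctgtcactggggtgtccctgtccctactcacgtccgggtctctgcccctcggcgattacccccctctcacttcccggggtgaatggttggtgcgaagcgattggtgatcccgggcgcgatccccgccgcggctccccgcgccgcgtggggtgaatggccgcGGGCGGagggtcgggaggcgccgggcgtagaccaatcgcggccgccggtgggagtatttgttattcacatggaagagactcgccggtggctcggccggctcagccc
Grm2 held 4 GC boxes at 72.0% GC, Grm3 held 2, adjoining each other, at 63.7% GC, and Grm8 held 1 at 67.0% GC. The other 2 starts of Grm8 held 0 at 54.0% and 43.3% GC. The 2 windows of Grm7, at 61.0% and 66.7% GC, overlap each other and hold the same 1 GC box. At least 1 GC box was present in 35.7% of all 32851 promoters in the table, whose median GC content was 52.7%. The full cyclic AMP response element TGACGTCA was in none of the 7 windows of these members and in 1.79% of all promoters. The box TATAAA was likewise in none of the 7, against 13.6% of all. These matches describe the letters of the windows only.

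The total count per library was 24001828 to 35674490, and the 6 receptor genes together took 10138 to 13737 counts of it. Dclk3 itself was at 20.1 ± 3.44 CPM (SD, n = 6) under the label cKO and at 22.4 ± 3.31 CPM (SD, n = 5) under the label WT, where CPM stands for counts-per-million after scaling. That difference did not pass the test (edgeR, adjusted p = 0.727), and a count over the whole gene does not show whether part of it was removed, so the group is called "labelled cKO" and each direction is that of the labels. By Xist (490 to 721 CPM in 3 libraries and 1.22 to 11 in the other 8) and 4 Y-linked transcripts, WT replicates 1, 3 and 4 were female and all 6 libraries labelled cKO and WT replicates 2 and 5 male. Markers of the hippocampus were present: the 12 dentate granule cell genes summed to 570 to 705 CPM in the knockout-labelled libraries and 587 to 773 CPM in WT, and the 8 CA1 genes to 1240 to 1410 and 1160 to 1350 CPM. The 12 genes of thalamus and other neighbouring tissue summed to 112 to 146 CPM and 138 to 149 CPM. Of the 11 of them that were tested, 7 had a log2 fold change below 0 (median -0.2, 3 lower at an unadjusted p under 0.05). The 8 striatal genes summed to 123 to 172 and 119 to 138 CPM. Of these 4 were above 0 and 4 below, with 2 higher and 1 lower at an unadjusted p under 0.05. Of the 12 genes of choroid plexus and meninges 10 had a log2 fold change below 0 (median -0.45, 5 lower at an unadjusted p under 0.05; sums of 147 to 337 and 202 to 254 CPM). All 10 microglial genes had one above 0 (median 0.22, 4 higher at an unadjusted p under 0.05; sums of 775 to 1340 and 782 to 892 CPM). Over all 16587 genes tested, 637 were higher and 887 lower at an unadjusted p under 0.05. None of the marker genes was called by edgeR, and no marker of any list was at 0 in all libraries. In bulk tissue, fewer cells of a type and less RNA per cell cannot be told apart.

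The levels of the receptors were compared per kilobase of exon (CPM divided by the exon length of the gene in kilobases). Grm5, the group I receptor, had 22.1 ± 1.72 and Grm3 of group II 21.3 ± 1.17 (SD over all 11 libraries). Grm2 of group II had 9.3 ± 1.02 and Grm7 of group III 7.64 ± 0.408. Grm4 had 1.36 ± 0.222 and Grm8 0.513 ± 0.0849, both group III. Among all genes tested, the level of Grm5 stood at percentile 87.1 and that of Grm8 at percentile 16.2. Neighbours in this order were compared by an exact permutation test (2-sided, 2048 sign flips of the difference within each library), adjusted over 5 pairs. Grm5 and Grm3 did not differ beyond their spread, with Grm5 higher in 8 of 11 libraries (1.04-fold, ratio 0.883 to 1.18, exact permutation adjusted p = 0.155). The other 4 neighbours each kept their order in 11 of 11 libraries, with the smallest p that the flips can give (exact permutation p = 0.000977, adjusted p = 0.00122). Grm3 was 2.3-fold above Grm2, Grm2 1.21-fold above Grm7, Grm7 5.69-fold above Grm4 and Grm4 2.65-fold above Grm8.

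The order depends in part on the length used. With the longest annotated transcript as the length, Grm7 stood above Grm2, 1.11-fold and in 9 of 11 libraries (exact permutation p = 0.00391, unadjusted). By the same length Grm5 stood 1.32-fold above Grm3 in 11 of 11 libraries (exact permutation p = 0.000977, unadjusted). By this length the level of Grm4 was 1.76 in place of 1.36 and that of Grm8 1.06 in place of 0.513, so that the gap between them was smaller, with both still below the other 4 members. In the WT libraries alone, with the exon length, the order was that of all 11. In level per kilobase the group II pair made up 49.7% ± 1.23 of the sum over the 6 receptors in WT and 48.7% ± 2.16 in those labelled cKO (SD, n = 5 and 6). Grm5 made up 34.7% ± 1.55 in WT and 36.2% ± 2.31 in the libraries labelled cKO. The 3 group III receptors held 15.6% ± 1.13 and 15% ± 0.913, in the same order. The ranges of the genotypes overlapped for each of these shares. In raw counts, which favour long transcripts, Grm5 alone gave 54.6% to 61.7% of all receptor counts.

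**Figure D1:**
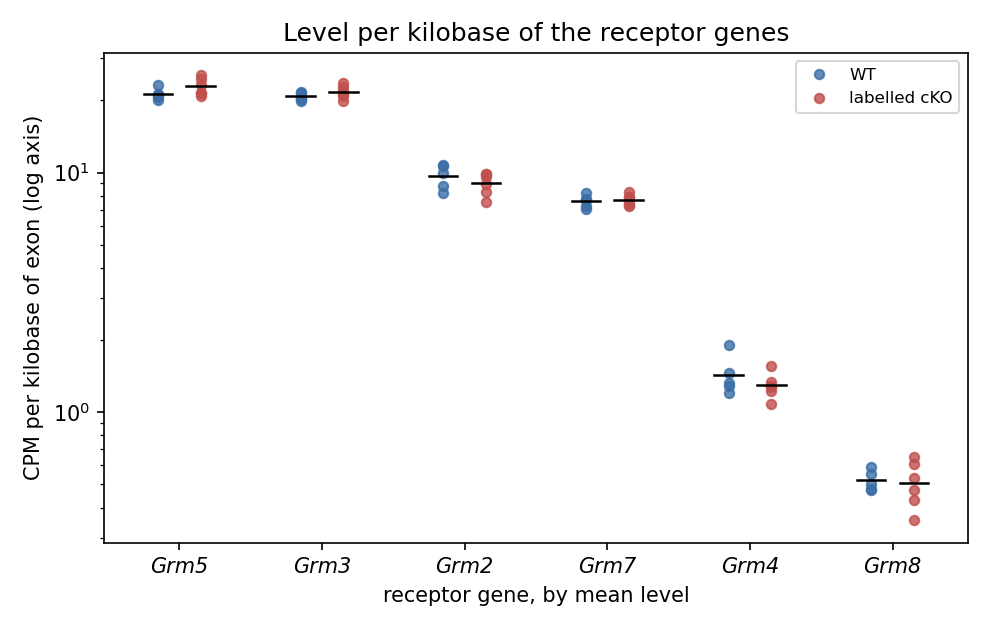
Level of each receptor gene in CPM per kilobase of exon on a log axis, with 1 point per library, WT in blue and labelled cKO in red, and a black bar at each group mean. Grm5 and Grm3 lie together near 22.1 and 21.3, Grm2 and Grm7 near 9.3 and 7.64, and Grm4 and Grm8 at 1.36 and 0.513.

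The main comparison asked whether any receptor gene differed between the genotypes. All 6 genes passed the filter on low counts and were tested together with all others that did, 16587 genes in total. At an adjusted p under 0.05 edgeR called 0 of the 6, and over all genes tested it called 0%. At an unadjusted p under 0.05 there were again 0 of 6 members, against 9.19% of all genes. DESeq2 called 0 of the 6 and 0.443% of the genes to which it gave an adjusted p, 62 in all. In no member did the groups separate without overlap, as they did in 0.916% of all genes. A share of 0 among 6 genes lies close to each of these backgrounds.

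Grm5, the postsynaptic group I receptor, had 261, 221, 237, 220, 252 and 214 CPM in replicates 1 to 6 labelled cKO. In WT replicates 1 to 5 it had 206, 237, 218, 212 and 216 CPM. Replicates 1 and 5 labelled cKO lay above every WT library, replicate 3 was level with the highest of them, WT replicate 2, and the other 3 lay within the WT range. The group means of Grm5 were 234 ± 19.1 CPM (SD, n = 6) and 218 ± 11.7 CPM (SD, n = 5). The log2 estimate was 0.11 ± 0.06 (SE; 95% interval -0.01 to 0.23; edgeR, adjusted p = 0.588). The interval runs from -0.98% to 16.9%. In the 8 male libraries alone the log2 fold change was 0.05, with the male WT replicates 2 and 5 at 237 and 216 CPM. With a sex term it was likewise 0.05. As no library labelled cKO was female, that estimate rests on the same 8 male libraries and is no separate check. The 12 astrocyte markers summed to 4970 to 7690 CPM under the label cKO against 4640 to 5480 CPM in WT. These sums carry the wide spread of Gfap, at 1610 ± 1060 CPM under the label cKO (SD, n = 6) and 799 ± 271 CPM in WT (SD, n = 5). Of the 12 markers 3 were higher and 0 lower at an unadjusted p under 0.05, against 637 and 887 of all 16587 genes. Across the 11 libraries Grm5 and the score of these markers (their mean log2 CPM, each centred) had r = -0.18 (permutation p = 0.609, adjusted p = 0.913 over 72 relations; rho = 0.03, permutation p = 0.946, adjusted p = 0.973). Within the libraries labelled cKO r was -0.84 and within WT it was -0.13. Grm5 had an unadjusted p under 0.05 in 7 of 21 alternatives (edgeR 0.0315 without WT replicate 2, limma-voom 0.0423, for example), and in none did its adjusted p pass.

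Of the group II receptors, Grm2, an autoreceptor of glutamatergic terminals, had 36.8, 43.9, 40.8, 48.1, 48.2 and 47.0 CPM in replicates 1 to 6 labelled cKO. WT replicates 1 to 5 had 42.8, 40.1, 48.5, 52.5 and 51.9 CPM of Grm2. Replicate 1 labelled cKO was the lowest of all 11 libraries and WT replicates 3, 4 and 5 were the highest. The log2 fold change of Grm2 was -0.10 ± 0.08 (SE; 95% interval -0.27 to 0.08; edgeR, adjusted p = 0.755). Of the 12 dentate granule cell markers 10 had a value below 0 in the same comparison, with a median log2 fold change of -0.13 and 0 called. Across the 11 libraries Grm2 and the score of these markers had r = 0.41 (permutation p = 0.213, adjusted p = 0.696; rho = 0.37, permutation p = 0.263, adjusted p = 0.776). The estimate of Grm2 rests in part on single libraries: it was -0.05 without replicate 1 labelled cKO, -0.06 without WT replicate 4 or 5 and -0.15 without WT replicate 2. With a sex term or in the male libraries it was -0.06, and both of these estimates rest on the same male libraries.

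Grm3, the group II receptor also found in astrocytes, had 69.1, 66.5, 65.0, 60.3, 63.8 and 72.1 CPM in replicates 1 to 6 labelled cKO. In WT replicates 1 to 5 Grm3 had 60.8, 65.7, 66.2, 62.1 and 62.6 CPM. Replicates 1, 2 and 6 labelled cKO lay above every WT library and replicate 4 below every one. On the log2 scale the difference was 0.06 ± 0.05 (SE; 95% interval -0.04 to 0.16; edgeR, adjusted p = 0.747), the narrowest interval of the 6 members. Of the 12 astrocyte markers 10 had a value above 0 there, with a median log2 fold change of 0.09 and 0 called. Across the 11 libraries Grm3 and the score of these markers had r = 0.46 (permutation p = 0.157, adjusted p = 0.696; rho = 0.21, permutation p = 0.54, adjusted p = 0.779), with r = 0.44 within the libraries labelled cKO and -0.29 within WT. The estimate of Grm3 was 0.03 without replicate 6 labelled cKO, with a replicate block and with library totals only. The estimate with the block also takes nothing from replicate 6, which has no WT library of its number, so it is no separate check.

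Among the group III receptors, Grm4 had 7.69, 7.31, 7.60, 9.34, 7.96 and 6.50 CPM in replicates 1 to 6 labelled cKO. WT replicates 1 to 5 had 7.67, 8.68, 7.19, 7.89 and 11.4 CPM of Grm4. WT replicate 5 was the highest of the 11 libraries, and its gap to the next WT library was 0.648 of the WT range. That is below the 0.71 at which Dixon's test calls an outlier in a group of this size. The log2 fold change was -0.14 ± 0.12 (SE; 95% interval -0.39 to 0.10; edgeR, adjusted p = 0.741). Without WT replicate 5 it was -0.02. In the 8 male libraries it was -0.37 (edgeR, unadjusted p = 0.0191, adjusted p = 0.854) and with a sex term -0.38 (edgeR, unadjusted p = 0.0111, adjusted p = 0.701). Both estimates rest on the same 8 male libraries, of which 2 are WT, at 8.68 and 11.4 CPM. The 3 female WT libraries had 7.19 to 7.89 CPM, and the 6 male libraries labelled cKO had a median of 7.65 CPM. The high value of WT replicate 5 and an effect of sex cannot be told apart with these libraries.

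Grm7, the active-zone receptor of low glutamate affinity, had 42.9, 43.9, 42.7, 48.6, 46.5 and 46.4 CPM in replicates 1 to 6 labelled cKO. WT replicates 1 to 5 had 45.7, 41.6, 42.9, 45.4 and 48.6 CPM of Grm7. Both groups cover nearly the same range. The log2 fold change was 0.01 ± 0.05 (SE; 95% interval -0.10 to 0.12; edgeR, adjusted p = 0.97), so that the interval runs from -6.54% to 8.67%, and the sign of the estimate turned in 4 of 21 alternative analyses.

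Grm8 was the lowest member, with 5.25, 4.25, 6.05, 4.71, 6.41 and 3.50 CPM in replicates 1 to 6 labelled cKO. In WT replicates 1 to 5 it had 5.45, 4.70, 4.99, 4.74 and 5.84 CPM. The highest and the lowest library were both labelled cKO, and the WT values lay between them. On the log2 scale the difference was -0.04 ± 0.14 (SE; 95% interval -0.32 to 0.25; edgeR, adjusted p = 0.965), the widest interval of the 6, and its sign turned in 4 of 21 alternatives. The lowest value rests on 98 counts (95% exact Poisson interval 79.6 to 119, counting error only). Counting error alone gives a coefficient of variation of 8.19% in the libraries labelled cKO, where 21.9% was observed, and of 7.83% in WT, where 9.58% was observed. For Grm5, the member with the most counts, it gives 1.18% in the libraries labelled cKO, where 8.14% was observed.

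**Figure D2:**
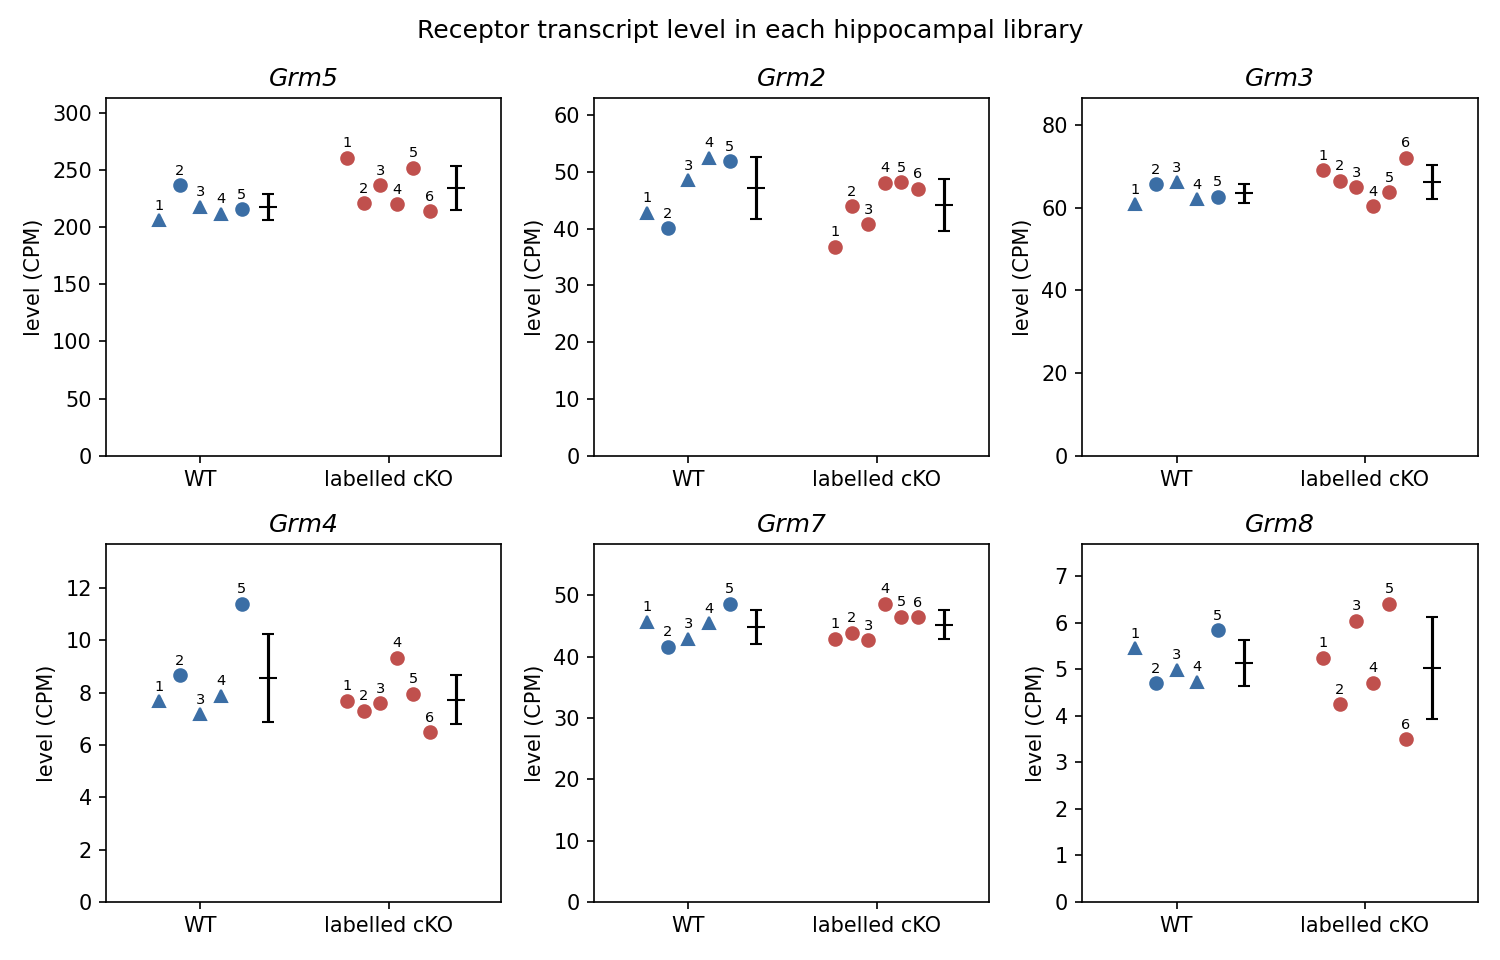
CPM of the 6 receptor genes in each library, from 0, with WT in blue and labelled cKO in red, triangles for the 3 female and circles for the 8 male libraries, the replicate number above each point, and a black bar for the mean with 1 SD. The groups overlap in all 6 panels, and WT replicate 5 is the highest library for Grm4 at 11.4 CPM.

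**Figure D3:**
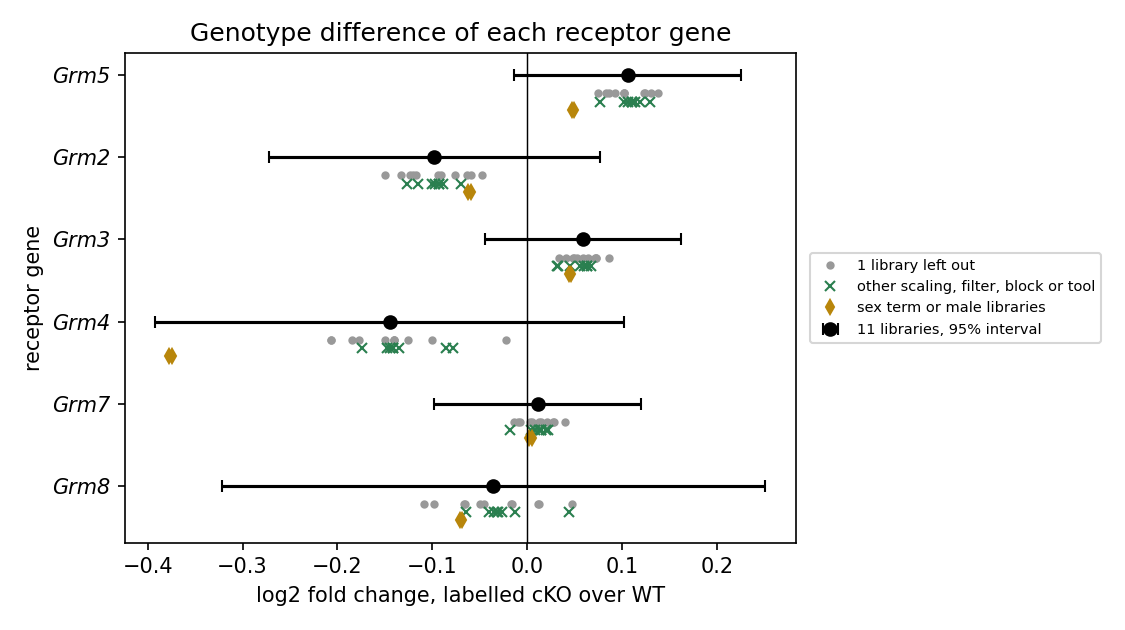
Log2 fold change of each receptor gene, labelled cKO over WT, with its 95% interval from all 11 libraries in black, and below it the estimates with 1 library left out (grey), with other scaling, filters, block or tool (green) and with a sex term or male libraries only (gold). Every black interval crosses 0, and the gold estimates of Grm4 lie near -0.37.

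The genes around the receptors were taken as lists of known or possible partners, and the median log2 fold change of all genes tested was -0.0001, with 50% of them below 0. At an unadjusted p under 0.05, 637 of the 16587 genes tested were higher and 887 lower. Of 26 genes of the group I pathway, from Homer and Shank scaffolds to Gq and phospholipase C, 20 had a value above 0, with a median of 0.03. In this list edgeR called 0 higher and 0 lower, and 1 in each direction had an unadjusted p under 0.05. These were Caln1, a neuronal calcium-binding protein that was included as a possible partner, at 0.18 ± 0.06 (log2 ± SE; edgeR, adjusted p = 0.416), and Arc, an activity-regulated gene of AMPA receptor endocytosis, at -0.81 ± 0.24 (log2 ± SE; edgeR, adjusted p = 0.416). Next came Dlgap1, a scaffold of the postsynaptic density, at 0.07 ± 0.04 and Grasp, which encodes the receptor-trafficking scaffold tamalin, at 0.14 ± 0.09 (log2 ± SE), neither passing the test.

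Of 30 genes of the group II and III pathway, with Gi and Go subunits, adenylyl cyclases, GIRK channels, arrestins and the PDZ protein Pick1, 17 had a value above 0, with a median of 0.02. There were again 0 called in either direction, with 1 higher and 2 lower at an unadjusted p under 0.05. Gnai3, a Gi alpha subunit, was at 0.10 ± 0.05 (log2 ± SE; edgeR, adjusted p = 0.525). Pick1, which binds the tail of mGlu7, was at -0.12 ± 0.05 and Arrb2, a beta-arrestin, at -0.12 ± 0.05 (log2 ± SE; edgeR, adjusted p = 0.53 and 0.501). Adcy5, an adenylyl cyclase, was at 0.10 ± 0.05 (log2 ± SE).

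The dipeptide NAAG is an agonist of mGlu3, and the cystine-glutamate exchanger feeds glutamate to group II receptors outside the synapse. All 7 genes of NAAG turnover and of this exchange had a value above 0, with a median of 0.08 and 0 called. At an unadjusted p under 0.05, 1 was higher, Folh1, and 0 were lower. Folh1, the enzyme that splits NAAG, had a mean of 11.3 ± 1.42 CPM (SD, n = 6) against 9.63 ± 1.04 CPM in WT (SD, n = 5). This is a log2 difference of 0.23 ± 0.10 (SE; edgeR, adjusted p = 0.497). Slc7a11, the exchanger's light chain, was at 0.14 ± 0.09, Naalad2 at 0.32 ± 0.18 and Rimklb, a NAAG synthetase, at 0.08 ± 0.06 (log2 ± SE), and none passed the test.

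Of 16 genes of glutamate supply and clearance 12 had a value above 0, with a median of 0.05 and 0 called. At an unadjusted p under 0.05, 1 was higher, Slc1a2, and 0 were lower. Slc1a2, the main astrocytic glutamate transporter, was at 0.22 ± 0.07 (log2 ± SE; edgeR, adjusted p = 0.404). Slc17a7, the vesicular glutamate transporter of hippocampal neurons, was at 0.09 ± 0.06, Got2, a mitochondrial aminotransferase, at 0.09 ± 0.07 and Slc38a1, a glutamine transporter, at 0.06 ± 0.05 (log2 ± SE).

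The receptors did not vary as 1 block across libraries. Over the 15 pairs of members, correlations of log2 CPM over the 11 libraries ran from -0.59 to 0.68, and 0 passed after adjustment. The highest was that of Grm2 with Grm7 (Pearson r = 0.68, permutation p = 0.0224, adjusted p = 0.328; Spearman rho = 0.54, permutation p = 0.0953, adjusted p = 0.51). Without replicate 1 labelled cKO and WT replicate 2 it was r = 0.54, and it was 0.87 within the libraries labelled cKO and 0.62 within WT. The lowest was that of Grm3 with Grm4 (r = -0.59, permutation p = 0.0548, adjusted p = 0.328; rho = -0.64, permutation p = 0.0408, adjusted p = 0.51). Without replicates 4 and 6 labelled cKO it was -0.33, and it was -0.91 within the libraries labelled cKO and -0.16 within WT.

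With Dclk3, the targeted gene, Grm2 had the highest correlation of 6 computed (r = 0.63, permutation p = 0.035, adjusted p = 0.137; rho = 0.51, permutation p = 0.115, adjusted p = 0.492). It was 0.57 within the libraries labelled cKO and 0.63 within WT, and 0.44 without replicate 1 labelled cKO and WT replicate 2. Grm5 had the lowest (r = -0.61, permutation p = 0.0455, adjusted p = 0.137; rho = -0.36, permutation p = 0.274, adjusted p = 0.548). That relation rests on replicates 1 and 5 labelled cKO, without which it was -0.07. None of the 6 passed after adjustment.

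**Figure D4:**
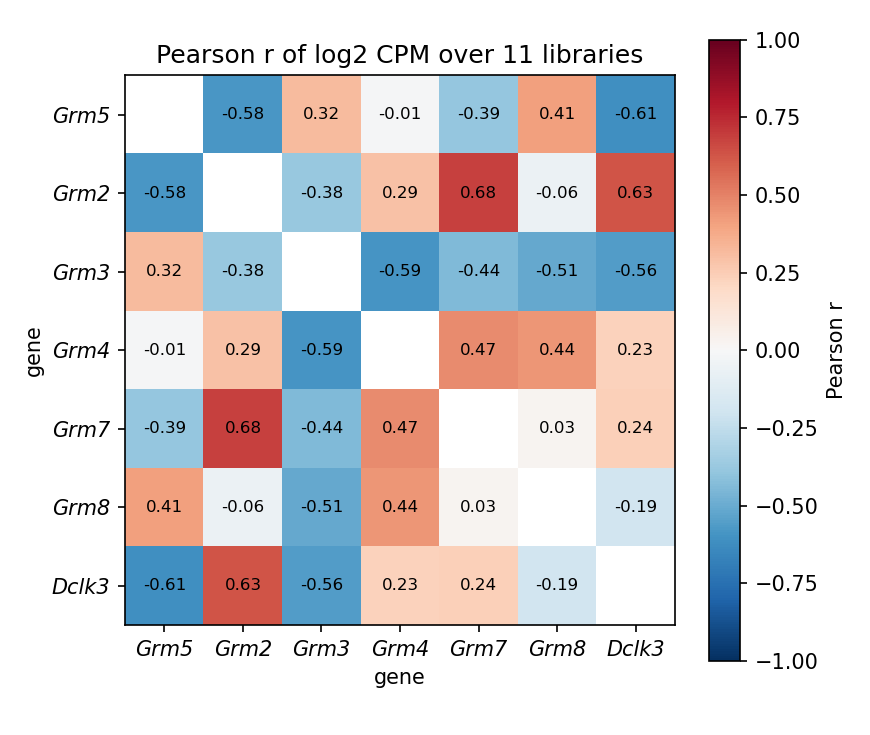
Pearson r of log2 CPM over the 11 libraries for each pair of receptor genes and for each with Dclk3, red for positive and blue for negative values. Grm2 and Grm7 reach 0.68 and Grm3 and Grm4 -0.59, and none of these values passed after adjustment.

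The genes whose log2 CPM followed each receptor most closely over the 11 libraries were sought among 11642 genes with a mean of at least 5 CPM. They were chosen for their high r, which is therefore given as a description. For Grm5 these were Trim33 (r = 0.958), Nap1l1, a histone chaperone (0.945), and Cacul1 (0.945). For Grm2 they included Dut, the dUTPase (0.909), and Qsox2 (0.907), and for Grm3 they were Chordc1 (0.927), 2610021A01Rik (0.891) and Usp45 (0.876). Grm4 was followed by Wfs1, a CA1 marker that encodes wolframin (0.895), Chrna4, a nicotinic receptor subunit (0.881), and Golga7b (0.867). Wfs1 stood, like Grm4, highest in WT replicate 5, at 176 CPM, while the other 10 libraries had 99.1 to 134 CPM. Of the 8 CA1 genes tested, 7 had a log2 fold change above 0 and 1, Wfs1, below (-0.14). Grm4 and the score of the CA1 genes had r = 0.32 over the 11 libraries (permutation p = 0.334, adjusted p = 0.824). Grm7 was followed by Gsg1l, an AMPA receptor auxiliary subunit (0.891), A930005H10Rik (0.875) and Rtkn (0.855). Grm8 was followed by Cntnap4, a contactin-associated protein (0.949), Gprasp2, a protein that sorts G protein-coupled receptors (0.933), and Zfp512 (0.915).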

How the data were processed

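Polyadenylated RNA was sequenced from 6 cKO and 5 WT hippocampi after a strand-marking preparation (labels' protocols). Software bcl2fastq 2.17.1.14 and build mm10 come from the submitters' processing notes. An aligner, a counter and an annotation are not named there. Raw counts per Ensembl gene were deposited by the authors, and 30566 of 30681 matched a symbol. The members and gene lists were chosen with earlier results of these data known.

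Counts were filtered with filterByExpr, scaled by TMM factors (0.983 to 1.02) and tested with edgeR's 2-sided robust quasi-likelihood F test with Benjamini-Hochberg adjustment over 16587 genes. CPM uses the scaled totals. Log2 CPM uses a prior count of 2. edgeR's common coefficient of biological variation was 9.56%, and log2 fold changes had a median SE of 0.077. No library was a duplicate: chi-square per degree of freedom between replicates was at least 5.7. Correlations used 100000 permutations. Those with Dclk3 and marker lists, the promoter motifs and the tests with the longest transcript were added after the data were seen. Named genes are the members, Dclk3, sex-linked transcripts, Gfap of the astrocyte markers, up to 4 genes of smallest p per pathway list and the 3 genes most like each member. Not all marker genes of the rule are named, and 1 gene that it names is not reported here.

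Alternatives were other scaling, filters, a replicate block, limma-voom, DESeq2, a sex term, the male libraries and each library left out. They are not all separate checks. As no library labelled cKO was female, the estimate with a sex term rests on the male libraries. As WT has no replicate 6, the estimate with a replicate block takes nothing from replicate 6 labelled cKO. R 4.3.3, edgeR 4.0.16, limma 3.58.1 and DESeq2 1.42.0 were used. The code was tested on simulated data.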

Additional observations from a re-analysis of the deposited data

How the results depend on the processing

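Over 21 alternatives per receptor gene none of the 6 passed the threshold (lowest adjusted p = 0.461, that of Grm5 with limma-voom), and 118 of 126 estimates kept their sign. Signs turned for Grm7 with library totals only (-0.018) and for Grm8 with the replicate block (0.044), and for both genes when single libraries were left out, where the log2 fold change ran from -0.014 to 0.040 for Grm7 and from -0.109 to 0.047 for Grm8. Over all genes, edgeR called 0, and it called 1 gene with library totals only, 3 without the low-count filter and 0 to 14 with 1 library left out (14 without WT replicate 5), while DESeq2 called 62. In the fit with the replicate number as a block 0 genes were called. The numbers are shared between groups but are not known to pair samples: 2 of 5 same-numbered pairs had deviations correlated above 0.1, and 1 of 5 WT libraries correlated best with its own number. Counting error was largest for Grm8 and Grm4, which had the fewest counts, and in each group of both genes it was below the observed spread.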

Other observations

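Levels of the receptors were also set against the mean centred log2 CPM of 12 marker lists over the 11 libraries, 72 relations in all, a comparison added after the data were seen. None passed after adjustment (permutation, lowest adjusted p = 0.585), and 5 had an unadjusted p under 0.05. Grm5 was higher where the CA1 genes were higher (r = 0.63, permutation p = 0.0355; rho = 0.64, permutation p = 0.0409) and lower where the CA2 and CA3 genes were higher (r = -0.67, permutation p = 0.0258; rho = -0.65, permutation p = 0.0368). Grm8 was higher with the interneuron genes (r = 0.63, permutation p = 0.0406; rho = 0.65, permutation p = 0.0329) and lower with the astrocyte genes (r = -0.68, permutation p = 0.0211; rho = -0.40, permutation p = 0.227). Grm7 was higher with the striatal genes (r = 0.66, permutation p = 0.0305; rho = 0.63, permutation p = 0.0441). Without the 2 libraries farthest from the median of the receptor, r was 0.56 and -0.61 for Grm5, 0.52 and -0.52 for Grm8 and 0.40 for Grm7. Within the 5 WT libraries the relation of Grm8 with the interneuron genes had the other sign (r = -0.20), and that with the astrocyte genes was near 0 (r = 0.08).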
